A study of Mus musculus with 4 samples.

Results

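The regions described here are places in the mouse genome that had an open-chromatin peak in 3 of 4 libraries of adipose progenitors and no peak in the fourth, the second subcutaneous library. There were 15746 such regions on the 19 autosomes, out of 80820 autosomal and 83319 merged regions in all. Chromatin was profiled by ATAC-seq, which lets a transposase place adapters wherever DNA is accessible, and piled-up reads then mark open sites. The cells were taken fresh, without further treatment, from C57BL/6 mice aged 16 weeks, as 2 libraries from subcutaneous fat (SAT 1 and SAT 2) and 2 from visceral fat (VAT 1 and VAT 2). All 4 libraries share the strain, the age and the protocol. Whether each library was made from its own mouse, and how the progenitors were purified, is not stated in the labels.

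Regions were formed by joining any peaks of the 4 lists that shared 1 bp or more. They were selected on peak presence: SAT 1, VAT 1 and VAT 2 each had a peak in the region and SAT 2 had none. Regions with a peak in all 4 libraries are called common regions below. The choice thus used the presence of a peak in every library, and the values that follow describe the chosen regions without a test. Regions are not replicates, and each interval beside a share is a 95% Clopper-Pearson interval for counting error alone. Positions are counted from 1 on build mm9. No gene annotation or genome sequence of that build was used here, so the genes near these regions and their sequences were not analysed, and the progenitor label was not checked against marker genes.

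Adipose progenitors are mesenchymal cells of fat tissue that can divide and form adipocytes. Their open chromatin holds promoters, which are open in many cell types, and enhancers, which differ more between cell types and carry much of a cell's identity. Subcutaneous and visceral progenitors are known to differ in the developmental patterning genes they express. A peak caller reports a site once its signal stands far enough above the background, so a site without a reported peak may still be accessible.

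SAT 2 stood apart from the other libraries by the length of its list. It held 22845 peaks, against 56823 (SAT 1), 56907 (VAT 1) and 62279 (VAT 2). Each list ended at a lowest score of 20. No read counts come with the lists, so each library's depth is unknown. The part that depth or library quality plays in the absence of SAT 2 peaks was not tested.

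Of the 34480 autosomal regions with a peak in SAT 1, VAT 1 and VAT 2, those without a SAT 2 peak made up 45.7%, and the other 18734 were common regions. The same rule applied to each other library found fewer regions, but there it asks for a peak in the short SAT 2 list and so starts from fewer and stronger regions. SAT 1 alone was missing from 381 of 19115 regions (1.99%), VAT 1 alone from 361 of 19095 (1.89%) and VAT 2 alone from 171 of 18905 (0.905%). Of regions chosen only by a peak in both visceral libraries, SAT 2 lacked 50.5% and SAT 1 lacked 10.7%. Peaks in the regions missing only from SAT 2 made up 29.6% of the autosomal SAT 1 list, 29.3% of the VAT 1 list and 26.6% of the VAT 2 list. The regions covered 5.26 Mb, against 10.6 Mb in the common regions. The number of regions missing only from SAT 2 depended on list length and on the libraries in the rule. With every list cut to its 22845 highest-scoring peaks, 1506 regions were missing only from SAT 2, or 10.4% of those with peaks in the other 3 libraries. In the top 50% of each list there were 8370, or 45.9%. Leaving 1 of the other libraries out makes the rule looser. The count was then 19581 without SAT 1, 19796 without VAT 1 and 23676 without VAT 2.

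The strength of a peak was read from the peak caller's score, as a percentile among all peaks of the same list from 0 (weakest) to 100 (strongest), and a region took the highest-scoring peak of each library. Regions missing only from SAT 2 were of middling rank in every library that had them. Their median percentile was 48.0 (SAT 1), 48.6 (VAT 1) and 50.5 (VAT 2), whereas the common regions had medians of 80.5, 80.6 and 83.6 in the same libraries. In SAT 1, the interquartile range was 29.2 to 64.7 in the regions missing only from SAT 2 and 65.3 to 91.2 in the common regions. In VAT 2 it was 29.7 to 65.7 in the regions missing only from SAT 2 and 71.6 to 92.2 in the common regions. These ranges did not overlap in either library, and in VAT 1 they met at a percentile of 64.9.

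The weakest of the 3 peaks also ranked lower in the regions missing only from SAT 2. The lowest of the 3 percentiles had a median of 29.0 in the regions missing only from SAT 2 and of 73.7 in the common regions. It was under 25 in 6544 of the regions missing only from SAT 2 (41.6%) and in 1147 of the common regions (6.12%). It was under 50 in 12309 (78.2%) and in 3807 (20.3%). The highest and the lowest of the 3 percentiles also lay further apart in the regions missing only from SAT 2. Their median range was 28.3 points there and 11.7 points in the common regions. Where all 3 percentiles were 75 or more, a choice that itself limits the range, it was 8.88 and 5.66 points. The classes were not matched on rank here, so the part that rank plays in this difference was not tested.

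**Figure D1:**
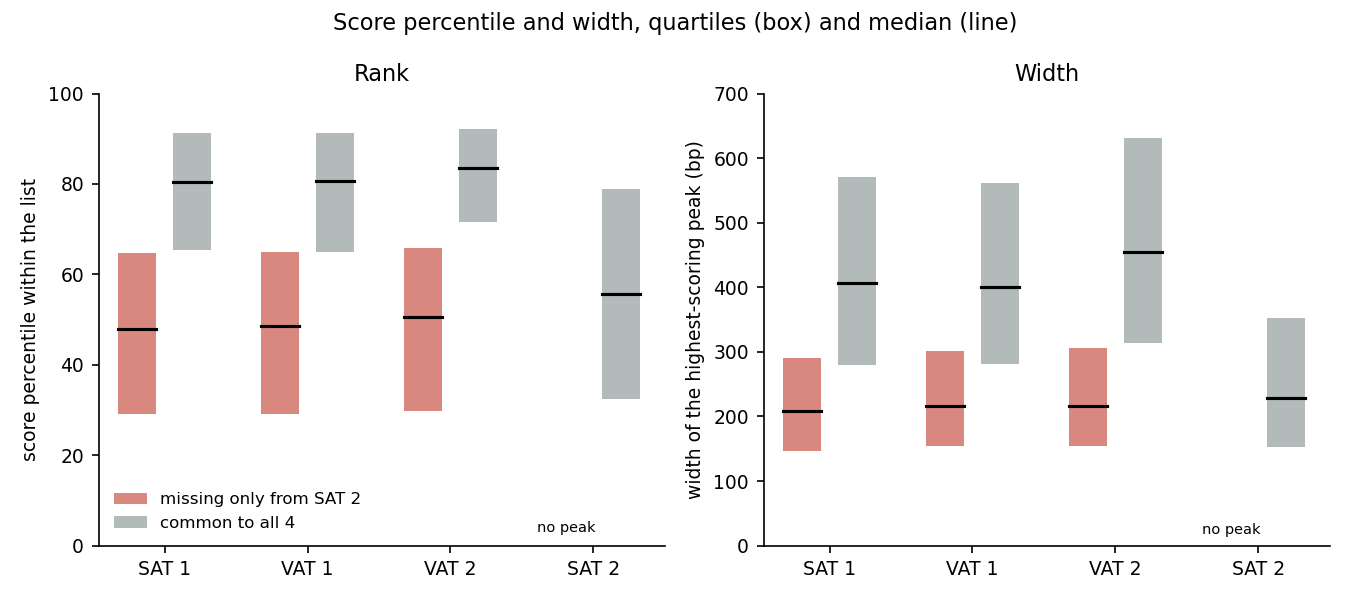
Score percentile within the list (left) and width in bp of the highest-scoring peak (right) for regions missing only from SAT 2 and for common regions, by library. Boxes span the interquartile range and lines mark medians. In SAT 1, VAT 1 and VAT 2 the medians of the regions missing only from SAT 2 lie between 48.0 and 50.5, below those of the common regions, and their peaks are narrower.

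Absence from SAT 2 followed weak signal in the other libraries, without a step. Where the lowest of the 3 percentiles was under 10, SAT 2 lacked a peak in 2865 of 3222 regions, or 88.9% (interval 87.8% to 89.98%). Between 40 and 50 it lacked one in 58.4% (56.6% to 60.2%), and between 60 and 70 in 28.3% (26.9% to 29.8%). Between 80 and 90 the share was 3.37% (2.82% to 3.98%). Between 90 and 100 it was 0.260% (0.119% to 0.492%), or 9 of 3467 regions. The share was lower in each successive bin of 10 points, and the intervals of neighbouring bins did not overlap.

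The rank that SAT 2 gave to the common regions also followed their rank in the other libraries. Where the lowest percentile of the other 3 libraries was under 10, the SAT 2 peak had a median percentile of 21.2 in its own list. Between 50 and 60 that median was 35.7, between 70 and 80 it was 55.6, and between 90 and 100 it was 90.6. The median was higher in each stronger bin, apart from 27.4 between 20 and 30 and 26.3 between 30 and 40. Weak common regions were thus in the lower part of the SAT 2 list. The median SAT 2 score was 58 in the weakest bin and 211 in the strongest.

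**Figure D2:**
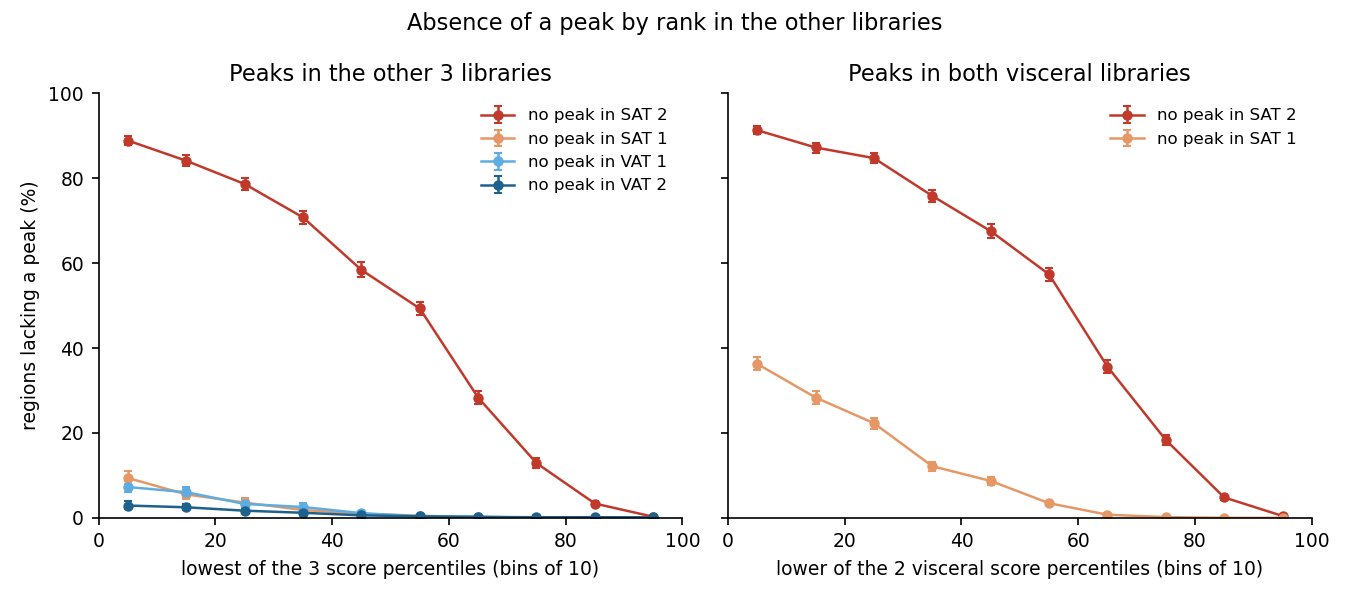
Share of autosomal regions (%) that lack a peak in the named library, by the lowest score percentile of the other libraries in bins of 10. Left, regions with peaks in the other 3 libraries. Right, regions with peaks in both visceral libraries, for SAT 2 and SAT 1. Bars are 95% Clopper-Pearson intervals. The SAT 2 curve starts at 88.9% on the left and 91.4% on the right and is at 0.260% and 0.436% in the strongest bin.

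To set both subcutaneous libraries on the same regions, all 38594 autosomal regions with a peak in VAT 1 and VAT 2 were binned by the lower of their 2 visceral percentiles. SAT 2 lacked a peak in 50.5% of them (interval 49.97% to 50.97%) and SAT 1 in 10.7% (10.4% to 11.0%). In the weakest bin SAT 2 lacked 91.4% and SAT 1 36.3%. Between the percentiles of 50 and 60 SAT 2 lacked 57.4% and SAT 1 3.45%. Between 80 and 90 SAT 2 still lacked 206 of 4282 regions (4.81%), while SAT 1 lacked 0 of them, which allows a share of up to 0.0701%. Both curves were lower in each stronger bin down to that point, and SAT 2 reached the level of the weakest SAT 1 bin only between 60 and 70, where it lacked 35.6%.

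The regions missing only from SAT 2 were also narrow. Their median width was 305 bp (interquartile range 234 to 403 bp), against 528 bp (383 to 709 bp) in the common regions. Common regions also take in a SAT 2 peak, which can widen them, whereas the widths of single peaks are free of this. In the regions missing only from SAT 2, SAT 1 peaks had a median width of 209 bp, and VAT 1 and VAT 2 peaks one of 216 bp each. Peaks of the common regions had median widths of 407 bp (SAT 1), 401 bp (VAT 1) and 455 bp (VAT 2). Regions were joined from overlapping peaks, so shared bases and near centres of the 3 libraries were largely set by that rule. In 15323 (97.3%) of the regions missing only from SAT 2, and in 18550 (99.0%) of the common regions, at least 1 base was covered by the highest-scoring peaks of SAT 1, VAT 1 and VAT 2 together. The centres of these peaks lay within a median of 54 bp of each other in the regions missing only from SAT 2 and of 55.5 bp in the common regions. A library had 2 or more separate peaks in 1064 (6.76%) of the regions missing only from SAT 2 and in 2389 (12.8%) of the common regions, where a SAT 2 peak can also join neighbours.

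Width went with absence also among regions of like rank. The narrowest of the 3 peaks was split into quartiles, of 89 to 146 bp, 147 to 232 bp, 233 to 378 bp and 379 to 4556 bp. SAT 2 lacked a peak in 83.6%, 63.5%, 29.9% and 5.33% of these quartiles, from narrow to wide. With the lowest percentile held between 50 and 60, the shares were 68.0%, 59.4%, 41.4% and 24.1%. Between 70 and 80 they were 38.0%, 30.0%, 15.2% and 3.43%, where the narrowest quartile held 50 regions. At like rank, the widest quartile had the lowest share in each of these bins. The narrowest quartile was not above the next one between 60 and 70 or at 80 and more, where it held 146 regions or fewer. Score and width come from the same peak caller and are not independent of each other.

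**Figure D3:**
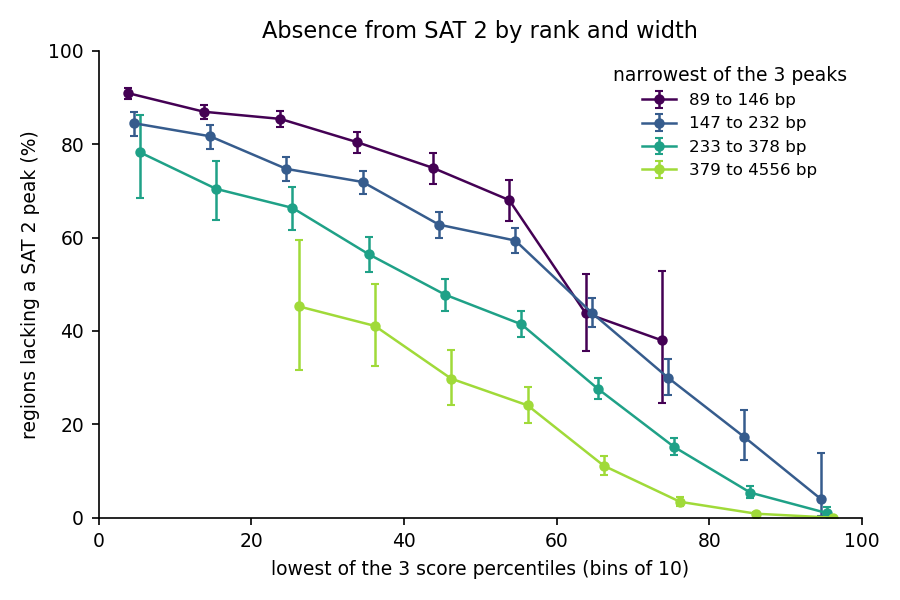
Share of regions (%) lacking a SAT 2 peak by the lowest of the 3 score percentiles in bins of 10, drawn separately for quartiles of the narrowest of the 3 peaks. Bars are 95% Clopper-Pearson intervals, and bins with fewer than 20 regions are not drawn. The widest quartile lies below the others, at 24.1% between the percentiles of 50 and 60 where the narrowest quartile is at 68.0%.

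Among the 3 libraries that hold these regions, the rank in VAT 2 went most closely with whether SAT 2 had a peak. If 1 region missing only from SAT 2 and 1 common region are drawn at random, the common one ranked higher in VAT 2 in 87.8% of such pairs, with ties counted as equal shares. It ranked higher in SAT 1 in 82.9% and in VAT 1 in 82.3%. VAT 2 thus stood 4.90 points above SAT 1. SAT 1 comes from the same depot as SAT 2, and VAT 2 has the same replicate number, but the labels do not say whether a number marks a shared animal or day. The lowest of the 3 percentiles gave 87.4%, and the narrowest of the 3 peaks gave 85.6%. For the 381 regions missing only from SAT 1, the library of the same number, VAT 1, gave the highest value, 93.3%, with 86.3% for VAT 2 and 77.4% for SAT 2. For the 361 missing only from VAT 1, that library was SAT 1 with 92.2%, followed by 85.6% for VAT 2 and 76.3% for SAT 2. For the 171 missing only from VAT 2, SAT 2 again gave the lowest value, 72.98%, with 81.4% for SAT 1 and 81.03% for VAT 1. In 3 of the 4 cases the library of the same number thus gave the highest share, and VAT 2 was the exception. SAT 2, the short list, gave the lowest share in every case where it was compared, so its last place is not particular to VAT 2. The cases of SAT 1 and VAT 1 are not separate, since each was ranked by the other. These shares describe regions of 4 libraries and carry no error over animals.

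With the other libraries held fixed, VAT 2 again stood apart from SAT 1 and VAT 1. Where SAT 1 and VAT 1 both ranked at 75 or more but VAT 2 ranked under 25, SAT 2 lacked a peak in 118 of 133 regions, or 88.7% (interval 82.1% to 93.5%). With VAT 2 between 25 and 50 it lacked 70.1% of 314 regions, and with VAT 2 between 50 and 75 it lacked 36.8% of 1125. Where VAT 1 and VAT 2 both ranked at 75 or more and SAT 1 between 50 and 75, SAT 2 lacked a peak in 14.6% of 1158 regions. With SAT 1 between 25 and 50, it lacked 28.6% (18.85% to 40.003%) of 77 regions. VAT 1 gave values close to those of SAT 1, with 15.5% of 1187 regions and 29.2% of 72 at the same ranks. Under 25 there were only 2 such regions for SAT 1 (1 lacking) and 8 for VAT 1 (4 lacking), too few to set beside the 133. Between 25 and 75, a rank in VAT 2 therefore went with absence from SAT 2 more often than the same rank in SAT 1 or VAT 1.

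At the weak end the contrast was as plain. Where the lower of SAT 1 and VAT 1 was under 25 and VAT 2 at 75 or more, SAT 2 lacked 58.4% (53.2% to 63.5%) of 370 regions. Where the lower of VAT 1 and VAT 2 was under 25 and SAT 1 at 75 or more, it lacked 85.9% (81.1% to 89.9%) of 263 regions. VAT 2 was the lowest-ranking of the 3 libraries in 35.8% of the regions missing only from SAT 2 and in 24.9% of the common regions. SAT 1 was the lowest in 31.6% and 37.2% of these classes, and VAT 1 in 32.6% and 37.9%.

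**Figure D4:**
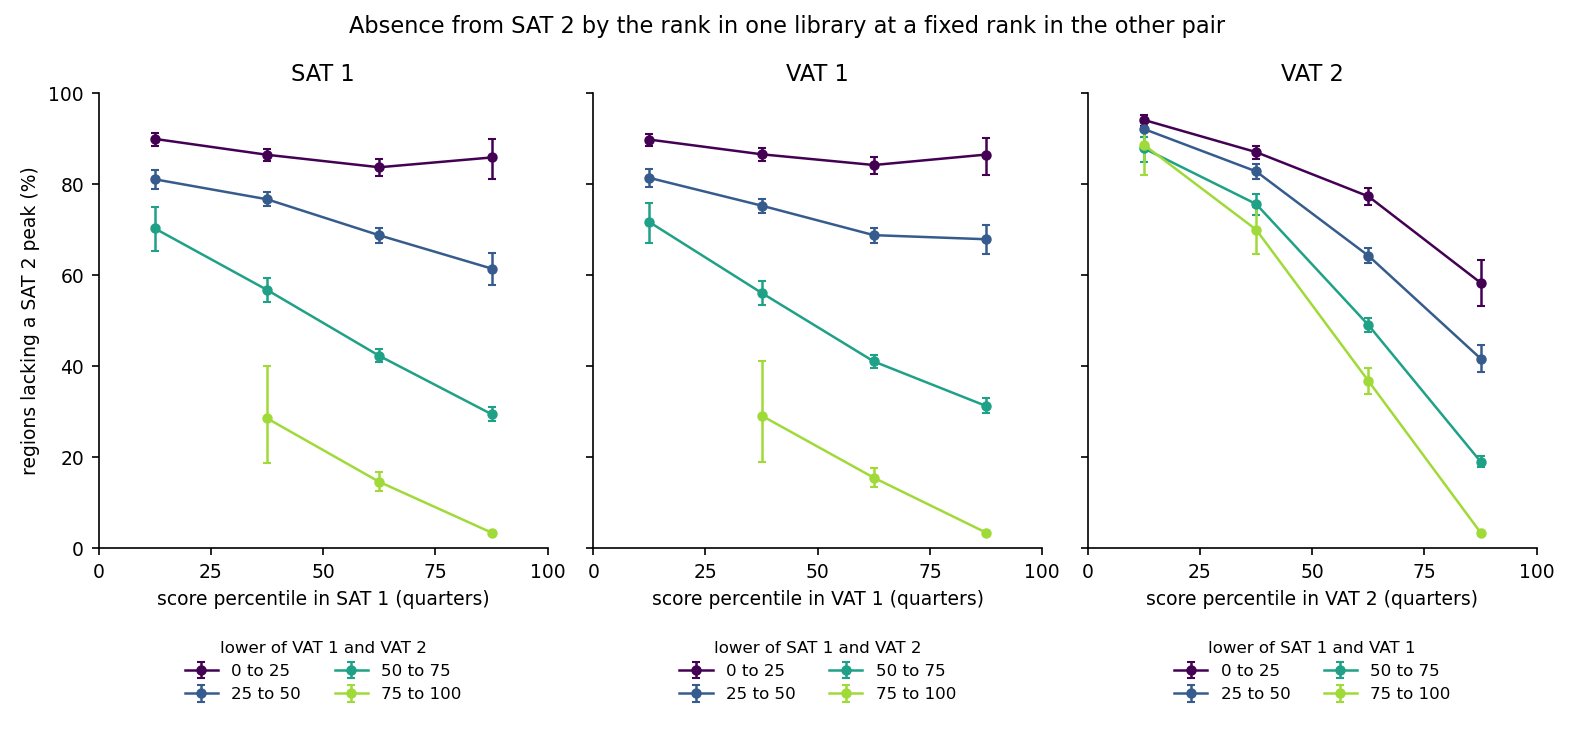
Share of regions (%) lacking a SAT 2 peak by the score percentile in SAT 1 (left), VAT 1 (middle) and VAT 2 (right), in bins of 25 points, with 1 line for each bin of 25 points of the lower percentile of the other pair. Bars are 95% Clopper-Pearson intervals, and points from fewer than 20 regions are not drawn. The lines of the VAT 2 panel meet near 90% at the left, and in the SAT 1 and VAT 1 panels they stay apart.

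Strong regions were those with all 3 percentiles at 75 or more. Among regions missing only from SAT 2 there were 320 of them, or 2.03%, whereas 8991 of the common regions (48.0%) were as strong. SAT 2 thus lacked 3.44% of the 9311 strong regions. SAT 1 lacked 0 of the 4980 regions in which its 3 partners ranked at 75 or more, and VAT 1 lacked 0 of 4986. VAT 2 lacked 7 of the regions in which its partners ranked at 75 or more, or 0.143%. Across all 3 of these libraries the share lacking was 0 or 0.143%, against 3.44% for SAT 2. A count of 0 allows a share of up to 0.0602% for SAT 1 and VAT 1. The partners of SAT 1, VAT 1 and VAT 2 include the short SAT 2 list, where a percentile of 75 leaves fewer peaks above it. These counts thus rest on fewer and stronger regions than that of SAT 2, and the shares are not like for like.

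The number of strong regions depended on the threshold and on the libraries used. It was 3437 at a percentile of 50, 629 at 70, 139 at 80 and 9 at 90. At 95 it was 0 of 1623 regions, which allows a share of up to 0.185%. With 1 library left out of the rule, so that only a pair of percentiles had to reach 75, it was 514 without SAT 1, 531 without VAT 1 and 1260 without VAT 2. With every list cut to its 22845 highest-scoring peaks, and percentiles taken within the cut lists, it was 7. In the top 50% of each list it was 177. When a SAT 2 peak counted only if it and another library's peak overlapped by 50% of each, 1688 strong regions lacked one. By rank in place of percentile, 14550 regions had all 3 peaks within the 22845 highest of their lists, and SAT 2 lacked a peak in 1548 of them, or 10.6% (10.1% to 11.2%).

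Regions on either side of the threshold had nearly the same lowest percentile. Just inside lay chromosome 13 at 16853214 to 16853594, with percentiles of 79.1 in SAT 1 and 79.2 in VAT 1. Just outside lay chromosome 12 at 86392003 to 86392572, with percentiles of 89.6 in SAT 1 and 93.5 in VAT 1. Next on the inside came 95348574 to 95349004 on chromosome 7 and 45889697 to 45890063 on chromosome 17. Next on the outside came 102390099 to 102390353 on chromosome 2 and 43591994 to 43592364 on chromosome 17. In all 6 regions VAT 2 held the lowest percentile, 75.0004 for a score of 183 inside and 74.86 for a score of 182 outside. Among the strong regions missing only from SAT 2, no SAT 1 percentile was under 75.047 and no VAT 1 percentile under 75.051. The spacing of whole-number scores thus set which library was lowest just inside, and nothing about VAT 2 is read from it.

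The strong regions missing only from SAT 2 stayed in the lower part of the strong range. Their lowest percentile had a median of 79.1, against 87.2 in the strong common regions. Their median width was 411.5 bp, against 626 bp in the strong common regions, which also take in a SAT 2 peak. In the strong common regions the SAT 2 peak had a median percentile of 77.6, and 4849 of the 8991 (53.9%) ranked at 75 or more in SAT 2 as well. At the other end, 400 of the strong common regions (4.45%) ranked under 25 in SAT 2 and 100 (1.11%) under 10. VAT 2 was the lowest of the 3 libraries in 157 of the 320 strong regions missing only from SAT 2, or 49.1% (43.5% to 54.7%), and in 27.4% (26.5% to 28.4%) of the strong common ones. All 320 had a base covered by the peaks of SAT 1, VAT 1 and VAT 2 together, as had 8977 of the 8991 strong common regions. The joining of overlapping peaks largely set this.

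The strongest of all lay on chromosome 10 at 76552205 to 76552509, a region of 305 bp. It ranked at the percentiles of 96.9 (SAT 1), 94.7 (VAT 1) and 96.2 (VAT 2). The nearest region with a SAT 2 peak was 7.89 kb away. Second was the widest of the leading 20, a region of 806 bp on chromosome 13 at 77274259 to 77275064. It ranked at the percentiles of 96.5 (SAT 1), 96.6 (VAT 1) and 94.3 (VAT 2). Both regions ranked alike in all 3 libraries, and the second was far from SAT 2 peaks, at 303 kb.

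Chromosome 3 at 40486347 to 40486798 had percentiles of 92.4 (SAT 1), 96.4 (VAT 1) and 91.8 (VAT 2). Chromosome 8 at 75247057 to 75247420 had 91.6 (SAT 1), 90.8 (VAT 1) and 98.6 (VAT 2), and its VAT 2 score of 526 was the highest VAT 2 score of any region missing only from SAT 2. Chromosome 14 at 48809074 to 48809326 was the narrowest of the leading 20, at 253 bp, with percentiles of 90.7, 92.6 and 95.8 in the same order of libraries. In the last 2 of these regions VAT 2 ranked highest, so that a high VAT 2 rank did not always come with a SAT 2 peak.

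The next 4 also kept every percentile above 90. Chromosome 1 at 193718283 to 193718718 had percentiles of 92.3 (SAT 1), 90.6 (VAT 1) and 96.5 (VAT 2). Chromosome 5 at 44943393 to 44943864 had 97.9 (SAT 1), 97.8 (VAT 1) and 90.5 (VAT 2), the largest lead of SAT 1 and VAT 1 over VAT 2 among these 9 regions. Chromosome 17 at 32966972 to 32967336 had its lowest percentile, 90.3, in SAT 1. Chromosome 7 at 133750593 to 133750895 had the same lowest percentile of 90.3, in VAT 2.

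The other 11 of the leading 20 had lowest percentiles of 87.1 to 89.9. On chromosome 3 they were 10342504 to 10342916 and 152065258 to 152065592, on chromosome 9 98501871 to 98502404, and on chromosome 16 10834989 to 10835524. Chromosome 7 held 49760731 to 49761349 and 88517277 to 88517569, chromosome 15 held 82247904 to 82248253, and chromosome 11 held 97832523 to 97832982. The remaining 3 were 67369706 to 67370311 (chromosome 13), 107551997 to 107552645 (chromosome 4) and 163393831 to 163394232 (chromosome 1). The leading 20 lay on 14 chromosomes, and each library had a single peak in each of them. SAT 1 ranked lowest in 7, VAT 1 in 7 and VAT 2 in 6. The leading 20 were picked for a high lowest percentile, so these counts are not set against those of all 320 strong regions.

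**Figure D5:**
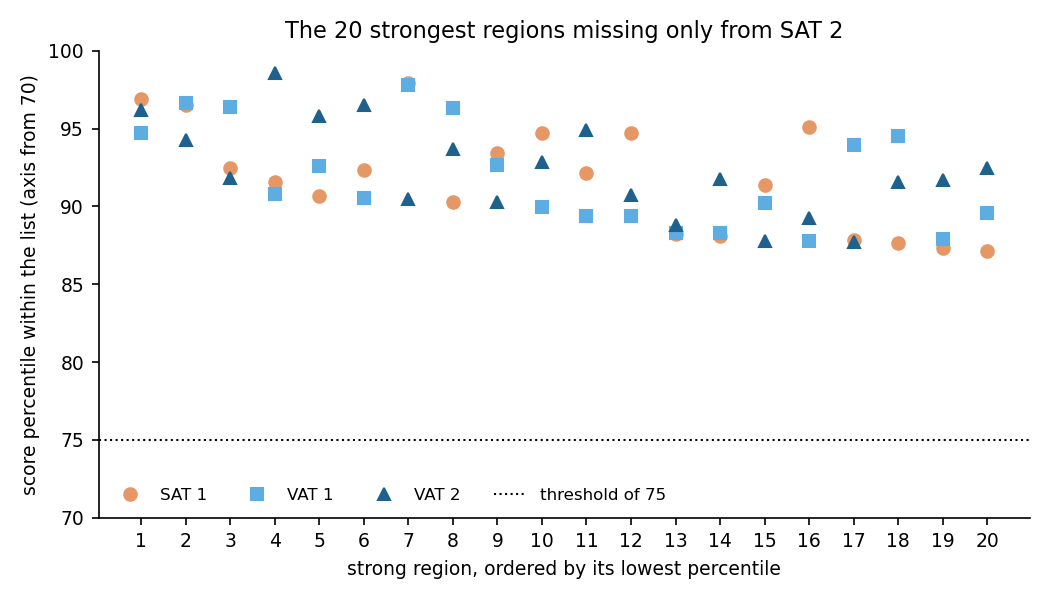
Score percentile within the list in SAT 1, VAT 1 and VAT 2 for the 20 strong regions missing only from SAT 2 with the highest lowest percentile, in that order. The vertical axis starts at 70 and the dotted line marks the threshold of 75. All points lie at 87.1 or more, and no library is lowest throughout.

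Few strong regions missing only from SAT 2 lay beside a SAT 2 peak, and few strong common regions lay beside another one. Of the 320, 6 (1.88%) had one within 500 bp, 11 within 1000 bp and 34 (10.6%) within 5000 bp. The median gap to the nearest region with a SAT 2 peak was 24.3 kb. Strong common regions lay at a median of 20.99 kb from the nearest other region with a SAT 2 peak. Of them, 4.23% had one within 500 bp, 6.20% within 1000 bp and 14.4% within 5000 bp. The closest case was chromosome 17 at 87846344 to 87846712, with a gap of 49 bp. The strongest case within 500 bp was chromosome 2 at 163428298 to 163428779, with percentiles of 86.7 (SAT 1), 94.9 (VAT 1) and 92.2 (VAT 2) and a gap of 124 bp. The most isolated strong region was chromosome 16 at 67620963 to 67621447, which lay 1300 kb from any SAT 2 peak and had percentiles of 87.5, 96.2 and 85.2 in the same order of libraries. These 3 regions were chosen after their values were seen.

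At matched rank, regions missing only from SAT 2 lay farther from other SAT 2 peaks than common regions did, except in the strongest bin. With the lowest percentile between 20 and 30, the median gap was 17.7 kb in the regions missing only from SAT 2 and 10.1 kb in the common ones. Between 50 and 60 it was 18.9 kb and 13.7 kb, and between 80 and 90 it was 25.3 kb and 18.9 kb. Between 90 and 100, with 9 regions missing only from SAT 2, it was 19.9 kb and 24.97 kb. Over all ranks together the gap was 19.1 kb and 17.2 kb.

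The regions missing only from SAT 2 were found on all 19 autosomes. Of the regions with peaks in the other 3 libraries, the share without a SAT 2 peak was lowest on chromosome 7, at 40.6% (38.6% to 42.7%), and highest on chromosome 13, at 49.5% (47.03% to 52.02%), and these intervals did not overlap. The strong ones made up between 2.45% (1.38% to 4.01%) of strong regions on chromosome 4 and 4.82% (2.93% to 7.43%) on chromosome 13, and there the intervals overlapped.

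Over windows of 1 Mb, strong regions missing only from SAT 2 were scattered. Exactly 1 lay in each of 264 windows, 2 lay in each of 25 windows and 3 lay in each of 2 windows. Those 2 windows were chromosome 17 from 84 to 85 Mb, where 29 of 49 regions lacked a SAT 2 peak (interval 44.2% to 73.0%), and chromosome 7 from 96 to 97 Mb, where 21 of 33 did (45.1% to 79.6%). The share over all autosomes was 45.7%. Of their strong regions, 3 of 6 and 3 of 7 lacked a SAT 2 peak, against 3.44% over all autosomes, but the windows were picked for this count. On chromosome 17 the 3 strong regions missing only from SAT 2 lay at 84131557 to 84131859, 84509396 to 84509663 and 84547981 to 84548516, and their lowest percentiles were 77.7, 76.4 and 78.1. On chromosome 7 they lay at 96211963 to 96212392, 96593698 to 96593970 and 96712068 to 96712420, with lowest percentiles of 77.7, 81.5 and 75.2. None of these 6 regions was among the leading 20.

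Windows differed in how often SAT 2 lacked a peak, and the highest and lowest shares came with different ranks. Among 721 windows with at least 20 regions, the median share without a SAT 2 peak was 45.2% (interquartile range 35.9% to 53.8%). The highest share was on chromosome 8 from 37 to 38 Mb, with 24 of 28 regions (85.7%, interval 67.3% to 96.0%) and a median lowest percentile of 39.4. The lowest share was on chromosome 6 from 47 to 48 Mb, with 2 of 32 regions (6.25%, 0.766% to 20.8%) and a median lowest percentile of 79.1. The next lowest was an exception. On chromosome 9 from 3 to 4 Mb SAT 2 lacked a peak in 3 of 32 regions (9.38%, 1.98% to 25.02%), although the median lowest percentile was 27.3. These windows were ranked after their values were seen.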

How the data were processed

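Bowtie2, MACS2 and build mm9 are named in the submitters' processing notes, without versions. Options, filters and any shift of reads were not given in the sources used here, and every library has its own deposited list of peaks with a start, an end and the authors' peak caller score, whose scaling is not given, so the score was used only as a mid-rank percentile within its list. Read depth is unknown. The titles gave depots and replicate numbers. Peaks overlapping by 1 bp were merged, and shares were computed by bins of 10 percentile points. The named regions were the 20 strong regions with the highest lowest percentile, 3 on each side of the threshold of 75, and windows of 1 Mb with most strong regions. Of the 5 such windows the rule took, 3 were tied with others at 2 strong regions and are not named. The regions, the threshold and the comparisons were chosen with earlier results of these data known. No test over libraries was run, since the regions were chosen on all 4 of them. A limit for a count of 0 is 3 counts of the total. It lies below the upper end of the Clopper-Pearson interval, which was 0.0740% for the strong regions of SAT 1 and of VAT 1. Genes and sequences near the regions, also planned, need an annotation of build mm9 and were not analysed. Merging was checked against bedtools 2.31.1 and tested on simulated lists. Python 3.11.15, numpy 2.4.6, pandas 2.3.3 and scipy 1.17.1 were used.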

Additional observations from a re-analysis of the deposited data

How the results depend on the processing

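The lists give presence and rank only, so absence of a SAT 2 peak cannot be told from a signal below the caller's limit. No paired analysis was possible because the results are counts of regions with no test over libraries. No value exists without SAT 2, on which the choice of regions rests, and the share with VAT 2 lowest has none without VAT 2. The count of 15746 regions was 1506 with lists cut to 22845 peaks and 8370 in the top 50% of each list; with 1 library left out it was 19581 to 23676. The share without a SAT 2 peak (45.7%) was 57.1% with 50% reciprocal overlap, 44.7% with merging within 500 bp, 10.4% with equal lists, 46.4% with 200 bp around each centre, and 50.6% to 55.5% with 1 library left out. The 320 strong regions numbered 1688, 7 and 177 with reciprocal overlap, equal lists and the top 50%, and 514 to 1260 with 1 library left out. At thresholds of 50, 60, 70, 80 and 90 they numbered 3437, 1656, 629, 139 and 9, and 1548 by rank within 22845 peaks, an alternative added after seeing the data. Lists cut to 22845 or to the top 50% hold fewer weak peaks by construction, and a pair of libraries is a looser rule than 3. For the other changes the cause was not tested.

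The median lowest percentile of the regions missing only from SAT 2 (29.0) was 35.4 with reciprocal overlap, 29.2 with merging within 500 bp, 18.5 with equal lists, 28.8 in the top 50%, 28.9 with the mean over a region's peaks, and 30.1 to 33.0 with 1 library left out. That of the common regions (73.7) was 75.7, 74.3, 53.9, 70.5 and 70.2 in the same settings and 75.7 to 76.2 with 1 library left out, so it was the higher one in each of them. VAT 2 ranked lowest in 33.9%, 46.0% and 33.2% of the regions missing only from SAT 2 with reciprocal overlap, equal lists and the top 50%, and in 45.8% to 46.4% with SAT 1 or VAT 1 left out. For the common regions this was 30.8% with equal lists, 24.1% in the top 50% and 38.8% to 38.9% with SAT 1 or VAT 1 left out, again lower than in the regions missing only from SAT 2. The lead of VAT 2 over SAT 1 in the share of pairs (4.90 points) was 8.85 points with equal lists. It was 4.67 points when the 3 longer lists were cut to 56823 peaks each, an alternative added after seeing the data, and it was positive in all settings run.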

Other observations

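The sex chromosomes were left out of the regions described above. On chromosome X, 442 of 980 regions with peaks in SAT 1, VAT 1 and VAT 2 lacked a SAT 2 peak, or 45.1% (95% Clopper-Pearson interval 42.0% to 48.3%). Of the strong regions on chromosome X, 17 of 221 lacked one, a higher share than the 320 of 9311 (3.44%) on the autosomes. On chromosome Y, 18 of 96 regions with peaks in SAT 1, VAT 1 and VAT 2 lacked one, or 18.8% (11.5% to 28.0%), and 0 of the 22 strong ones did.

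The weakest region missing only from SAT 2, by the mean of its percentiles, lay on chromosome 7 at 88598549 to 88598887. Its scores were 37 in SAT 1, 36 in VAT 1 and 26 in VAT 2, at the percentiles of 3.72, 2.60 and 0.373, and a region with a SAT 2 peak lay 1.27 kb away. It was chosen after its values were seen.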
